A study of Mus musculus with 20 samples.

Results

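The 10 genes described here make, cut, anchor or edit hyaluronan and sulfated proteoglycans: Has1, Has2, Cemip, Acan, Vcan, Hapln1, Chpf, Cspg4, Sulf1 and Sulf2. They were taken by name from the 22660 rows of the count table, and 10 of 10 had a row. Several of them were chosen by their large rise with overload in these same mice, so their differences between overloaded and sham muscle are given as a description without a test. Differences between treatments within a surgery were not part of that choice and were tested. Whether treatment changed the rise with overload, tested as an interaction, uses values that entered that choice.

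RNA was sequenced from the plantaris, a calf muscle, of 20 old mice, each counted as 1 replicate. The mice were male C57BL/6J per the study's methods, and their age is 2 years in the labels and 23 to 24 months in the methods. Mechanical overload (MOV) was produced by cutting away part of the soleus and gastrocnemius, the muscles that work with the plantaris. In sham surgery the skin was opened and both muscles stayed whole. Each surgery was combined with D + Q or with vehicle, which gave 4 groups of 5 mice (vehicle sham, vehicle MOV, D + Q sham and D + Q MOV). D + Q combines quercetin (50 mg/kg), a flavonoid of plants, with dasatinib (5 mg/kg), which inhibits tyrosine kinases. The drugs or the vehicle alone were given by gavage on days 7 and 10, and muscle was taken on day 14. For sham mice 1 of the deposited texts gives day 14 as the second gavage. All groups were old, so no value here compares ages.

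Hyaluronan is a very long sugar chain without sulfate that is spun out of the cell by membrane synthases and swells the matrix with water. Aggrecan and versican are core proteins that carry chondroitin sulfate chains and bind hyaluronan, and link proteins hold that bond in place. Heparan sulfate chains carry sulfates whose pattern decides which growth factors they hold, and extracellular sulfatases trim that pattern. In muscle this loose matrix lies between the fibers and is made mainly by connective tissue cells.

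Library totals ran from 17887532 to 26234518 counts. Values are given as CPM, which divides a gene's counts by the library total after TMM scaling, a step that evens out differences in RNA composition. In an all-gene principal component analysis the first component (69.2% of variance) parted the 10 MOV from the 10 sham libraries. Vehicle MOV mouse 2 lay nearest to sham on it, at 36.2, where the other MOV mice lay between 58.2 and 83.27. Markers of skeletal muscle fibers (8 of 8 genes with a row) summed to 135000 to 153000 CPM in vehicle sham and 76600 to 109000 CPM in vehicle MOV muscle, so the labelled tissue showed its markers. A gene's CPM is a share of the RNA, and in whole muscle fewer cells of a type and less RNA per cell cannot be told apart.

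The hyaluronan synthases Has1 and Has2 were low in sham muscle and higher with MOV, by amounts that differed widely from mouse to mouse. Has1 (chr17:18063585-18075467 on the GRCm39 build, minus strand) was at 0.276, 0.23, 0.322, 0.873 and 0.412 CPM in vehicle sham mice 1 to 5. It was at 0.923, 0.622, 1.84, 22.4 and 4.47 CPM in the 5 vehicle MOV mice. With D + Q it was at 0.577, 0.609, 0.585, 0.68 and 0.407 CPM in sham and at 7.58, 7.03, 5.47, 4.91 and 21.2 CPM in MOV muscle. In vehicle mice the groups overlapped, because MOV mouse 2 lay below the highest sham mouse, while with D + Q they did not. The fitted log2 fold change of Has1 with MOV was 3.85 (SE 1.19) in vehicle and 4.04 (SE 0.52) in D + Q mice. A single library carried much of the vehicle value, which was 2.25 without vehicle MOV mouse 4. Its SD of log2 CPM among vehicle MOV mice was 1.99, against 0.92 for Has2 and 0.41 for Vcan.

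Has2 (chr15:56528342-56557999, minus strand), the synthase that is essential for the embryonic heart, ranked the mice of each MOV group in the same order as Has1, over a smaller range. It was at 0.644, 0.518, 1.03, 1.28 and 0.824 CPM in vehicle sham and at 2.41, 1.5, 2.97, 8.66 and 4.26 CPM in vehicle MOV mice. In D + Q mice it was at 0.892, 1.03, 1.76, 1.12 and 1.27 CPM in sham and at 6.18, 5.58, 4.27, 2.5 and 11.8 CPM in MOV muscle. Each MOV mouse lay above each sham mouse of its treatment. The log2 fold change was 2.23 (SE 0.46) with vehicle and 2.35 (SE 0.39) with D + Q. Has2 overlaps the antisense gene Has2os, and whether counting used the strand is not given in the sources used here, so reads of the pair cannot be told apart.

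The synthases moved together among overloaded muscles. Over the 10 MOV mice, as deviations from each treatment's mean log2 CPM, Has1 and Has2 had Pearson's r = 0.92 (permutation p = 0.00011) and Spearman's rho = 0.99 (permutation p = 1e-05, the smallest that the 100000 permutations can give). Adjusted over the 3 pairs of related members examined, these p-values were 0.00033 and 3e-05 (permutation tests). Without the 2 mice farthest from the median of Has1, r was 0.82. Libraries share depth and composition, which was not modelled here.

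The promoters of Has1 and Chpf are shown for a motif they share, and those of Acan and Cemip because both genes were near 0 in sham muscle. Each is the 250 bases before the start of the annotated canonical transcript on GRCm39, read 5′ to 3′ on the gene's strand. They lie at chr17:18075451-18075700 (minus, Has1), chr1:75455952-75456201 (minus, Chpf), chr7:78702714-78702963 (plus, Acan) and chr7:83735711-83735960 (minus, Cemip). Capitals mark matches to the letters of 5 motifs searched on both strands. The TATA box was searched as TATAAA and the CCAAT box as CCAAT. The core of the cyclic AMP response element was searched as TGACGTCA, the AP-1 element as TGANTCA and the TEAD element as GGAATG. No motif overlaps another in the windows shown.
Has1: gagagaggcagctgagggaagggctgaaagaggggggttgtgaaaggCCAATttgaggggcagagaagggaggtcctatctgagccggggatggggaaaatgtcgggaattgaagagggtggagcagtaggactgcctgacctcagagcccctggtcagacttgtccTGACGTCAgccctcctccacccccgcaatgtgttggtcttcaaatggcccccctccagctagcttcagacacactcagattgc
Chpf: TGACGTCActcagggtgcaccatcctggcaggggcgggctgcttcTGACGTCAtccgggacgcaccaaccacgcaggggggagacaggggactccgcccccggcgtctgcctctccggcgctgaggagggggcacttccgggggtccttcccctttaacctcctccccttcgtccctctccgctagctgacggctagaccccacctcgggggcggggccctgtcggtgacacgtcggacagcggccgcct
Acan: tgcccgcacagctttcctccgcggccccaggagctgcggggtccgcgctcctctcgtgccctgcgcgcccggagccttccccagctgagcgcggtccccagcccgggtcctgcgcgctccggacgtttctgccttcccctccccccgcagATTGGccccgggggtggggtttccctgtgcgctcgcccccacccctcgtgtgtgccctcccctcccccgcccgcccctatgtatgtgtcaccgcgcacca
Cemip: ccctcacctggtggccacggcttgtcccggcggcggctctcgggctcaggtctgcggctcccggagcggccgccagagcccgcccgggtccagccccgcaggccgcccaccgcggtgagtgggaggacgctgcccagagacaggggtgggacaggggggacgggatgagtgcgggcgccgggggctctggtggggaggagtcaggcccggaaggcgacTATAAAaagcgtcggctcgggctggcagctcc

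TGACGTCA occurred in 2 of the 9 members' promoters searched and in 1.7% of 21735 promoters of the same length. In Has1 it began 83 bases before the start, and in Chpf it occurred at 250 and at 205 bases before the start. CCAAT occurred in 3 of them (Has1, Acan and Sulf2) and in 36.5% of all promoters. TATAAA occurred in Cemip, 32 bases before the start, and in Sulf2, against 11.9% of all promoters. TGANTCA (6.17% of all promoters) and GGAATG (12.1%) occurred in 0 of the 9 windows. These are matches of letters, and binding was not measured.

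Cemip (chr7:83582065-83735724, minus strand), which encodes a hyaluronan-binding protein needed for hyaluronan breakdown outside the lysosome, was close to absent from vehicle sham muscle. Its CPM was 0.0 in 4 vehicle sham mice and 0.0589 in mouse 5, a single count in all. In vehicle MOV mice it was at 5.66, 2.28, 5.23, 4.86 and 4.69 CPM. D + Q sham mice gave 0.0525, 0.243, 0.0488, 0.291 and 0.0509 CPM, from 13 counts in all, and D + Q MOV mice 3.91, 5.31, 7.52, 4.73 and 8.58 CPM. Both MOV groups lay wholly above their sham groups. Because the sham counts are so few, the size of the rise is given from summed counts, scaled to library size. It was 411-fold with vehicle (95% counting interval 73.4 to 16300) and 44.0-fold with D + Q (25.6 to 83.1). These intervals cover counting error only and leave out the spread between mice.

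Aggrecan (Acan, chr7:78702964-78764847, plus strand), the large proteoglycan known from cartilage, showed the same step. It was at 0.0 CPM in 8 of the 10 sham mice, with 3 counts in vehicle sham mouse 4 and 1 count in D + Q sham mouse 3. Vehicle MOV mice held 9.15, 7.1, 5.84, 4.64 and 6.46 CPM and D + Q MOV mice 6.06, 4.93, 11.6, 7.23 and 17.4 CPM. From summed counts the ratio of MOV to sham was 198 (67.4 to 961) with vehicle and 890 (159 to 35200) with D + Q. Beside this, the 8 tendon and cartilage-like markers, among them Scx, Tnmd, Comp and Sox9, summed to 52.3 to 68.6 CPM in vehicle sham and 556 to 919 CPM in vehicle MOV muscle. In D + Q muscle they summed to 71.5 to 76.3 CPM in sham and 729 to 999 CPM in MOV. Of the 8, 7 were called higher with MOV in each treatment, where 30.7% (vehicle) and 34.4% (D + Q) of all genes were. Mkx had 7 to 11 counts and Col2a1 1 to 13 counts in vehicle sham mice. Both needed their vehicle MOV mice to pass the count filter, so the count of calls is not read as a result. Thbs4 made up most of these sums, with means of 40.6 CPM in vehicle sham and 600 CPM in vehicle MOV muscle. Between the same groups Scx went from 7.02 to 22.3 CPM and Sox9 from 1.17 to 5.53 CPM. Chad went from 3.02 to 3.06 CPM and Col2a1 from 0.251 to 0.918 CPM. None of the 8 markers was at the floor of 3 counts in every mouse of a group, and their part in the rise of Acan was not tested.

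Versican (Vcan, chr13:89803431-89890814, minus strand), the hyaluronan-binding proteoglycan of loose and provisional matrix, had far more counts. It was at 3.96, 4.03, 4.51, 5.88 and 5.71 CPM in vehicle sham and at 58.1, 34.2, 59.7, 73.0 and 61.1 CPM in vehicle MOV mice. D + Q mice had 4.88, 11.4, 7.56, 4.76 and 5.96 CPM in sham and 85.6, 74.2, 74.1, 63.2 and 79.4 CPM in MOV muscle. The MOV groups lay wholly above sham, and MOV mouse 2 was the lowest of the 10 overloaded muscles. The log2 fold change was 3.59 (SE 0.21) with vehicle and 3.51 (SE 0.22) with D + Q. Between Acan and Vcan, the pair of hyaluronan-binding core proteins, no relation was detected among MOV mice (r = -0.14, permutation p = 0.689; rho = -0.28, permutation p = 0.425; n = 10), and r was -0.35 without the 2 mice farthest from the median of Acan. Adjusted over the 3 pairs these permutation p-values were 0.689 and 0.425.

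Hapln1 (chr13:89686581-89759950, plus strand), the link protein that clamps aggrecan or versican onto hyaluronan, was the exception. It lies beside Vcan on chromosome 13, tail to tail, with 43480 bases and 0 other protein-coding genes between them. Its counts summed to 7 in vehicle sham, 5 in D + Q sham, 13 in vehicle MOV and 13 in D + Q MOV mice, and it did not pass the count filter of any comparison. The ratio of MOV to sham was 1.47 (95% counting interval 0.546 to 4.36) with vehicle and 2.08 (0.697 to 7.46) with D + Q. These intervals, too, leave out the spread between mice.

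Cspg4 (chr9:56772317-56807187, plus strand), the membrane-spanning NG2 proteoglycan found on pericytes, differed least with MOV of the 9 members with enough counts. Vehicle sham mice held 9.38, 7.3, 9.15, 10.7 and 7.24 CPM and vehicle MOV mice 19.3, 21.7, 27.2, 24.2 and 26.6 CPM. D + Q sham mice held 12.9, 8.46, 8.44, 8.74 and 9.42 CPM and D + Q MOV mice 24.4, 26.7, 20.9, 19.6 and 26.6 CPM. The groups did not overlap, and the log2 fold changes were 1.45 (SE 0.13) and 1.35 (SE 0.12). The 8 pericyte and smooth muscle markers summed to 609 to 746 CPM in vehicle sham and 584 to 704 CPM in vehicle MOV muscle. With MOV 4 of the 8 were called higher and 1 lower in vehicle mice (median 0.43 on the log2 scale), and 4 higher and 2 lower with D + Q (median 0.23, edgeR). Of all genes 30.7% were called higher and 29.8% lower with vehicle, and 34.4% and 30.9% with D + Q. In vehicle mice Pdgfrb, a pericyte receptor, went from 15.6 to 40.8 CPM and Acta2, the actin of smooth muscle, from 18.4 to 68.5 CPM. Tagln went from 14.1 to 50.8 CPM, Notch3 from 17.4 to 27.3 CPM and Myh11 from 20.2 to 23.0 CPM. Abcc9 went down from 327 to 186 CPM, Kcnj8 from 12.3 to 11.6 CPM and Rgs5 from 242 to 240 CPM. The part of the 8 markers in the rise of Cspg4 was not tested.

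Chpf (chr1:75451206-75455951, minus strand) encodes the chondroitin polymerizing factor, which works with chondroitin synthase to lengthen the chains that versican and aggrecan carry. It was at 3.59, 4.83, 5.22, 6.52 and 4.06 CPM in vehicle sham and at 32.1, 23.7, 29.5, 37.7 and 28.5 CPM in vehicle MOV mice. In D + Q mice it was at 4.77, 5.78, 4.14, 4.18 and 5.14 CPM in sham and at 34.7, 31.0, 39.6, 35.4 and 43.2 CPM in MOV muscle. The lowest MOV mouse was 3.64 times the highest sham mouse with vehicle and 5.36 times with D + Q. The log2 fold changes were 2.67 (SE 0.16) and 2.99 (SE 0.11).

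The sulfatases Sulf1 (chr1:12762501-12931416, plus strand) and Sulf2 (chr2:165915009-165998118, minus strand) remove 6-O-sulfates from heparan sulfate outside the cell. Sulf1 was at 8.6, 7.19, 7.15, 12.0 and 9.24 CPM in vehicle sham and at 49.5, 36.1, 46.6, 61.5 and 48.0 CPM in vehicle MOV mice. In D + Q mice it was at 9.08, 13.3, 12.1, 11.9 and 13.1 CPM in sham and at 66.7, 61.0, 61.2, 55.9 and 58.6 CPM in MOV muscle. D + Q MOV mice lay close together in Sulf1, with an SD of log2 CPM of 0.09. This was at percentile 18.5 of the 15700 genes that passed the count filter over all 20 mice.
Sulf2 was at 4.23, 6.5, 6.38, 9.66 and 6.65 CPM in vehicle sham and at 54.8, 35.4, 65.7, 68.7 and 56.1 CPM in vehicle MOV mice. It was at 6.93, 8.46, 8.0, 6.41 and 7.99 CPM in D + Q sham and at 76.2, 59.8, 85.5, 73.8 and 76.5 CPM in D + Q MOV mice. All MOV values of both sulfatases lay above all sham values of the same treatment. The log2 fold changes with MOV were 2.46 (SE 0.16) and 2.40 (SE 0.088) for Sulf1 and 3.09 (SE 0.23) and 3.35 (SE 0.099) for Sulf2, with vehicle and with D + Q. Among MOV mice Sulf1 and Sulf2 had r = 0.75 (permutation p = 0.0198, adjusted p = 0.0297 over the 3 pairs, n = 10) and rho = 0.49 (permutation p = 0.154, adjusted p = 0.231). Without the 2 mice farthest from the median of Sulf1, r was -0.06, so the relation rests on those mice. Sulf2 overlaps the coding gene Ncoa3 on the other strand, with the same limit as for Has2.

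**Figure D1:**
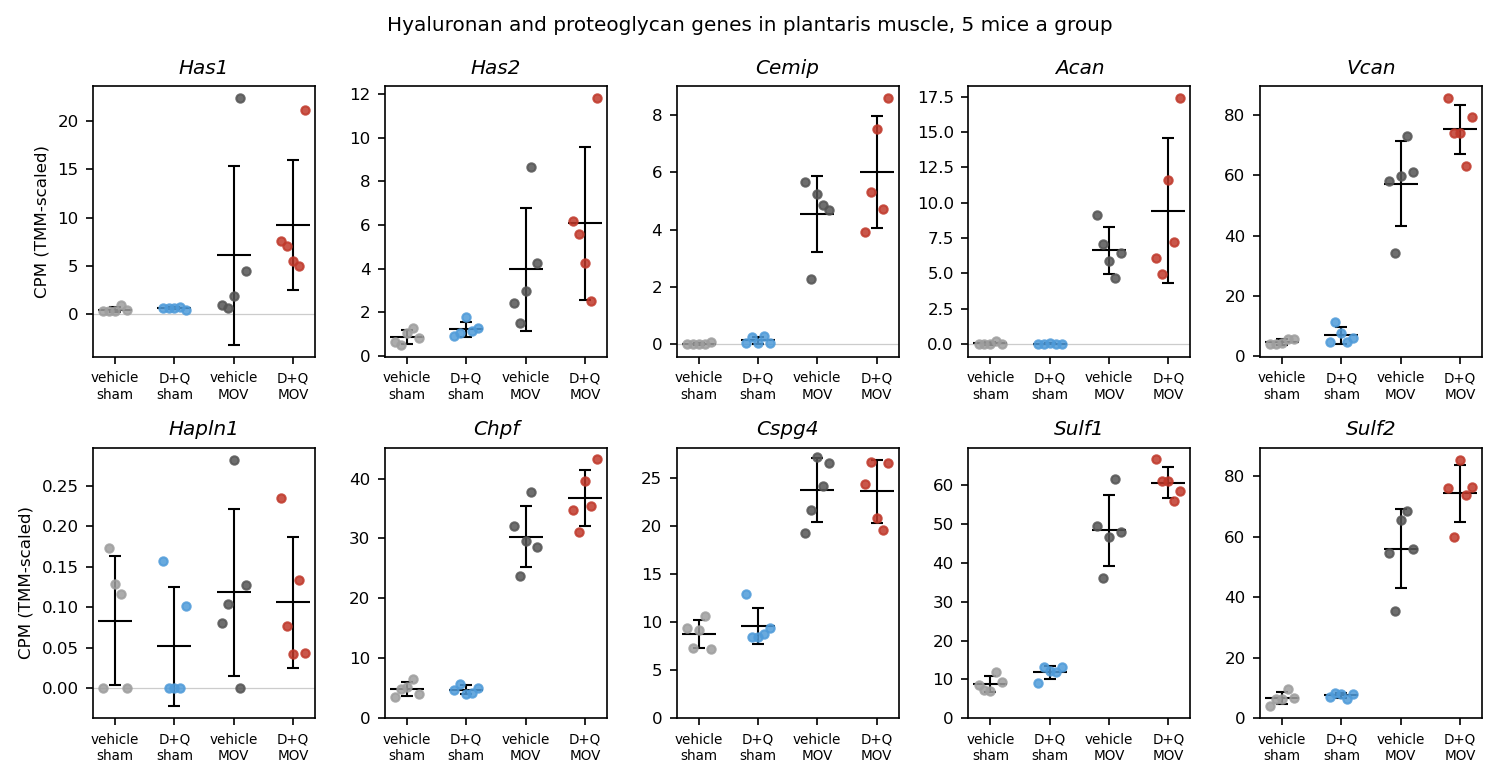
CPM (TMM-scaled) of the 10 members in each of 20 mice, 1 panel a gene with its own linear axis, where points are mice, long dashes group means and whiskers the SD (n = 5). In 8 of 10 panels every vehicle MOV mouse lies above every vehicle sham mouse, and Has1 and Hapln1 are those with overlap.

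Every vehicle MOV mouse lay above every vehicle sham mouse in 8 of 10 members, where 23.7% of 14601 genes tested did so. With D + Q it was 9 of 10, where 26.2% of 14913 genes did so. Since the members were picked on this contrast, nothing is read from those shares. The median log2 fold change of the 9 members tested was 3.09 with vehicle and 3.35 with D + Q, and over all genes it was -0.015 and 0.023. When only library totals were used for scaling, the median over all genes moved to 0.361 and 0.387, and the share of called genes that were higher in MOV moved from 50.8% to 84.0% with vehicle and from 52.6% to 83.5% with D + Q. The members' own rises then came out larger, for example 3.98 for Vcan with vehicle. The 8 fibroblast and fibro-adipogenic progenitor markers, among them Pdgfra and Col1a1, summed to 285 to 433 CPM in vehicle sham and 5640 to 11300 CPM in vehicle MOV mice. With vehicle 8 of 8 were called higher, where 30.7% of all genes were. In D + Q mice the fibroblast markers summed to 355 to 959 CPM and 10000 to 13900 CPM. Collagens made up most of the MOV sums. With vehicle Col1a1 went from 48.5 to 2300 CPM, Col1a2 from 76.2 to 2150 CPM and Col3a1 from 105 to 4040 CPM. The other markers rose less, Pdgfra from 16.6 to 35.5, Ly6a from 33.0 to 84.1 and Dpp4 from 4.39 to 6.73 CPM. Dpt went from 31.7 to 160 CPM and Pi16 from 22.1 to 120 CPM. The 8 macrophage markers summed to 53.4 to 139 CPM in vehicle sham and 274 to 824 CPM in vehicle MOV mice. Here too 8 of 8 were called higher, beside the 30.7% of all genes. None of these markers was at the floor, and their part in the members' rise was not tested.

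**Figure D2:**
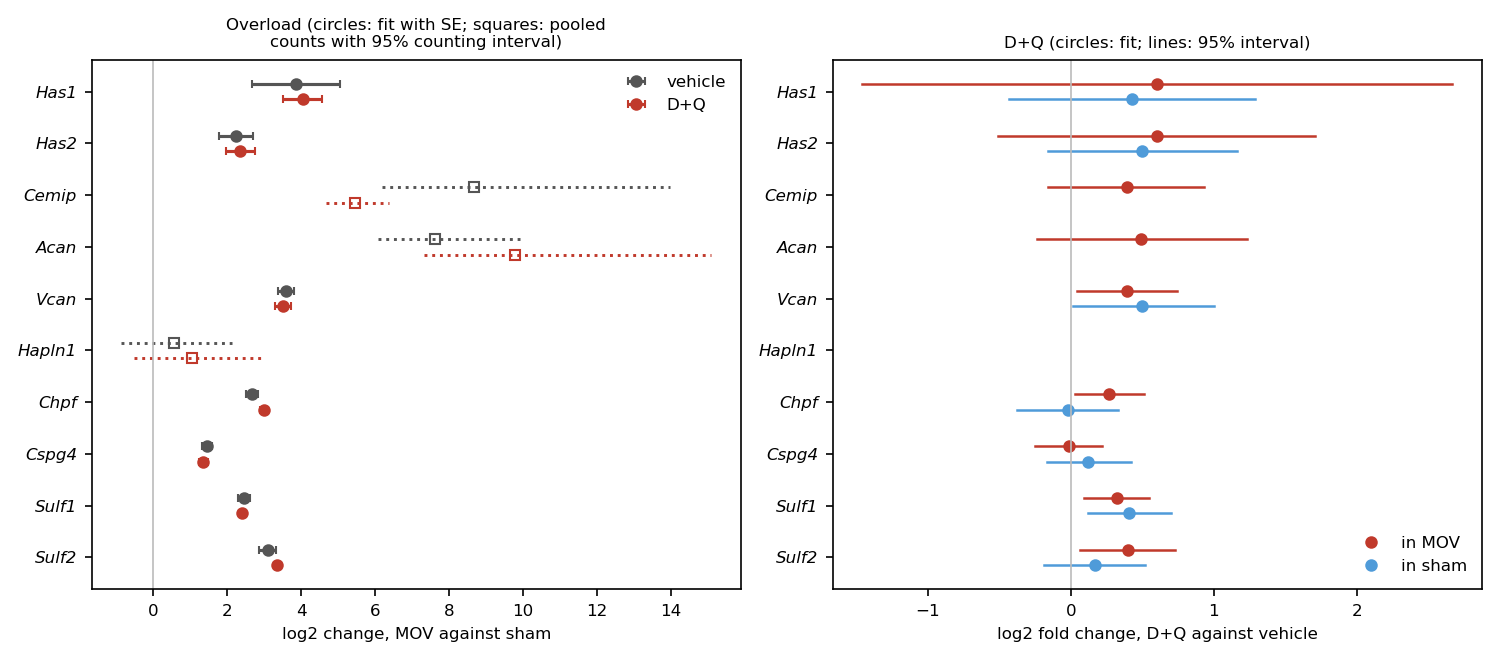
Left, log2 change of MOV against sham for vehicle (grey) and D + Q (red), as fitted values with SE (circles) or ratios of summed counts with 95% counting intervals (open squares, for Cemip, Acan and Hapln1). Right, log2 fold change of D + Q against vehicle with 95% intervals in MOV (red) and in sham (blue), where 9 and 7 members could be tested. Cemip and Acan show the largest rises on the left, and on the right the points sit between -0.022 and 0.6.

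Per kilobase of exon, which allows levels of different genes to be compared, sham muscle held mostly Chpf, the sulfatases and Cspg4. In vehicle sham Chpf stood at 1.25 ± 0.293 CPM per kb (SD, n = 5), Sulf2 at 0.788 ± 0.228, Sulf1 at 0.746 ± 0.167 and Cspg4 at 0.731 ± 0.122 CPM per kb. The ranges of neighbours in that order overlapped, and a gap followed before Vcan at 0.291 ± 0.0556 CPM per kb. Has2 (0.173 ± 0.0612 CPM per kb) and Has1 (0.0936 ± 0.0577 CPM per kb) came next, and Hapln1, Acan and Cemip stood at or below 0.0117 CPM per kb.
In vehicle MOV muscle the order was Chpf (7.85 ± 1.33 CPM per kb), Sulf2 (6.62 ± 1.54), Sulf1 (4.09 ± 0.763), Vcan (3.46 ± 0.855), Cspg4 (1.99 ± 0.278), Has1 (1.34 ± 2.05), Acan (0.858 ± 0.216), Has2 (0.795 ± 0.564), Cemip (0.371 ± 0.108) and Hapln1 (0.0166 ± 0.0145 CPM per kb; SD, n = 5). Vcan thus passed Cspg4, and Acan came level with the synthases. Ranges of all neighbours overlapped except between Cemip and Hapln1. With the longest transcript as the length, 44 of 45 pairs kept their order in vehicle MOV muscle, and Sulf2 stood above Chpf. In vehicle sham muscle that length put Sulf1 first, at 1.56 CPM per kb against 1.45 for Chpf, so the order among the leading members there depends on the transcript length used.

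**Figure D3:**
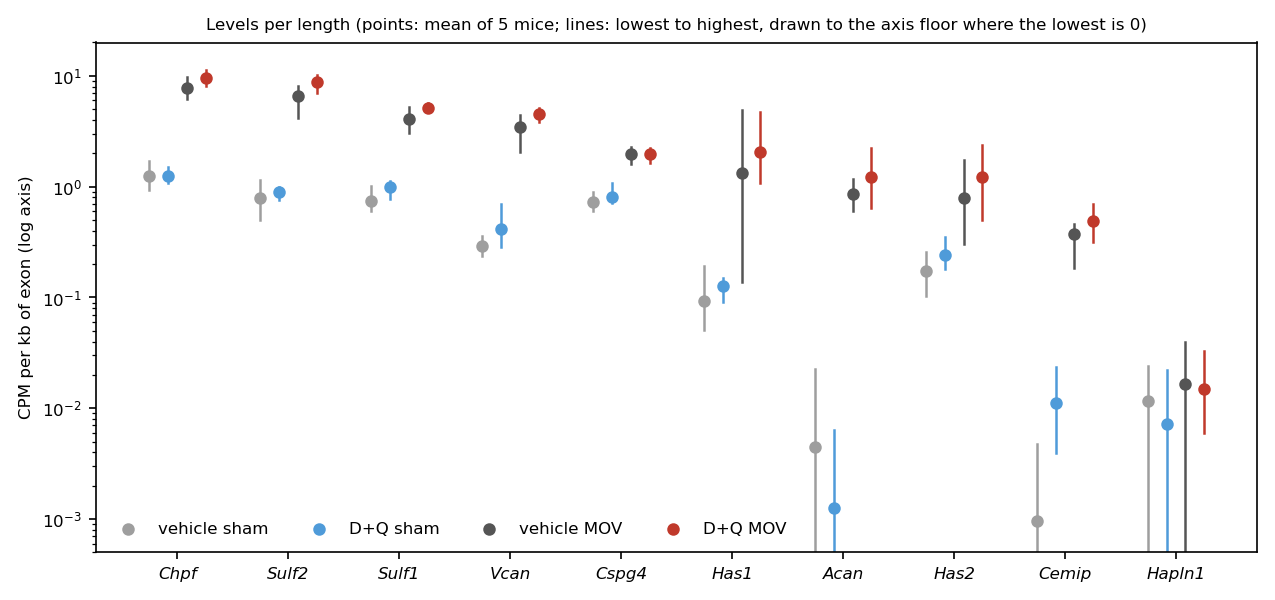
CPM per kb of merged exon, on a log axis, for the 10 members in order of their vehicle MOV mean, with points for the mean of 5 mice and lines from the lowest to the highest mouse. Acan and Cemip lie at or below 0.0238 CPM per kb in sham groups and between 0.186 and 2.25 CPM per kb in MOV mice.

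Other genes of the pathway, 133 listed by role of which 128 had a row, were tested between MOV and sham. With vehicle 67 of 106 tested were called higher and 19 lower in MOV, where 30.7% of all genes were called higher and 29.8% lower (edgeR's quasi-likelihood test, adjusted p under 0.05). With D + Q 71 of 108 were called higher and 14 lower, where 34.4% and 30.9% of all genes were. Their medians were 0.77 and 0.82 on the log2 scale. The counts here and by list include genes that passed the count filter through their MOV mice alone. Among these were Hmmr, Chsy3 and Hs3st3b1 with vehicle, and Adamts4 also needed its vehicle MOV mice to pass.

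In the supply of hyaluronan, 3 of 9 tested genes rose and 2 fell with vehicle, and 4 rose and 1 fell with D + Q. Ugdh, which makes the UDP-glucuronate that all of these chains need, rose with vehicle from 6.34 ± 0.443 to 26.4 ± 9.6 CPM (SD, n = 5 in each group here and for the genes that follow). Its log2 fold change was 2.07 (SE 0.23, adjusted p = 9.96e-06, edgeR). The third synthase, Has3, fell with vehicle by 0.66 on the log2 scale (SE 0.27, adjusted p = 0.0452, edgeR), a call that was lost in 11 of 18 alternative settings, where its adjusted p ran from 0.0156 to 0.4. With D + Q its log2 fold change was -0.28 (adjusted p = 0.33, edgeR). Among receptors and binding proteins 7 of 12 rose and 1 fell with vehicle, and 8 rose and 1 fell with D + Q. Cd44, the main surface receptor of hyaluronan, rose from 3.97 ± 1.12 to 35.1 ± 11.6 CPM with vehicle (log2 fold change 3.15, SE 0.29, adjusted p = 5.42e-06, edgeR). Hmmr, a hyaluronan-binding protein of dividing cells, went from 6 counts in all vehicle sham mice to 131 in vehicle MOV mice. It passed the count filter through its MOV mice alone, so its call is not read as a result. Stab2, the scavenger receptor that clears hyaluronan in sinusoidal endothelium, fell from 12.7 ± 3.4 to 3.26 ± 0.56 CPM (log2 fold change -1.96, SE 0.19, adjusted p = 5.6e-07, edgeR). Has3 and Cd44 were singled out after their values had been seen.

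The lists that build chondroitin sulfate and heparan sulfate chains differed in their counts. Of the chondroitin and dermatan sulfate list 13 of 14 tested genes rose and 0 fell with vehicle (median log2 fold change 1.64), and 12 of 14 rose and 0 fell with D + Q (median 1.91). Chsy3, a chondroitin synthase, went from 0.189 ± 0.11 to 3.37 ± 0.851 CPM with vehicle (log2 fold change 4.12, SE 0.35). It had 1 to 6 counts in vehicle sham mice and passed the filter through its MOV mice alone, so its call is not read as a result. Of the heparan sulfate list 6 of 14 rose and 5 fell with vehicle (median 0.06), and 5 of 15 rose and 5 fell with D + Q (median -0.05). Hs3st5, a heparan sulfate 3-O-sulfotransferase, fell from 10.8 ± 1.59 to 4.82 ± 1.0 CPM with vehicle (log2 fold change -1.14, SE 0.16, adjusted p = 1.55e-05, edgeR). Its relative Hs3st3b1 went from 10 to 91 summed counts and passed the filter through its MOV mice alone, so its call is not read as a result. With library totals alone the heparan sulfate list had 8 higher and 2 lower with vehicle and the chondroitin list 14 higher and 0 lower. The difference between the lists was not tested.

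The linkage sugars that start both kinds of chain were split, with 3 of 7 genes higher and 2 lower with vehicle and 4 higher and 2 lower with D + Q. Xylt2, a xylosyltransferase that begins the chain, rose from 5.35 ± 0.456 to 10.4 ± 1.85 CPM with vehicle. Fam20b, the xylose kinase, fell from 93.2 ± 4.66 to 61.9 ± 7.05 CPM, a log2 fold change of -0.58 (SE 0.08, adjusted p = 1.83e-05, edgeR). With D + Q its fall of 0.36 on the log2 scale was lost, and its sign changed, when only library totals were used (adjusted p = 0.93, edgeR). In the supply of sulfate 4 of 9 rose and 3 fell with vehicle, and 5 rose and 1 fell with D + Q. Papss1, which makes the active sulfate donor, rose from 5.05 ± 0.956 to 13.1 ± 3.89 CPM, and Bpnt2, the Golgi phosphatase that clears its by-product, fell from 149 ± 17 to 77 ± 2.32 CPM with vehicle.

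Core proteins that carry heparan sulfate rose in 12 of 13 tested genes with vehicle, and 1 fell. Sdc1, a syndecan of the cell surface, went from 1.64 ± 0.302 to 18.5 ± 4.1 CPM (log2 fold change 3.5, SE 0.18, adjusted p = 1.86e-09, edgeR). Of the other chondroitin sulfate core proteins 3 of 7 rose and 3 fell with vehicle, and 4 rose and 1 fell with D + Q. Col9a1, a chain of the collagen that can carry chondroitin sulfate, fell from 8.73 ± 2.73 to 2.08 ± 0.706 CPM (log2 fold change -2.06, adjusted p = 6.28e-06, edgeR). Cd74, the class II invariant chain, rose from 46.9 ± 25.4 to 182 ± 92.2 CPM (log2 fold change 1.97, adjusted p = 0.00605, edgeR). Cd74 is also an immune cell gene, and macrophage markers rose beside it as given above. Of the other aggregating proteoglycans only Bcan passed the count filter with D + Q, with 2 counts in sham and 88 in MOV mice. It passed through its MOV mice alone, so its call is not read as a result.

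Enzymes that take proteoglycans apart rose in most cases. All 7 tested ADAMTS proteases of the aggrecanase type were called higher with vehicle and 6 of 7 with D + Q. Adamts4, an aggrecanase that also cuts versican, went from 0.32 ± 0.164 to 10.3 ± 3.8 CPM with vehicle (log2 fold change 5.01, SE 0.36). It had 3 to 10 counts in vehicle sham mice and needed its MOV mice to pass the filter. Its vehicle call, counted among the 7, is therefore not read as a result. With D + Q it rose from 0.89 ± 0.447 to 14.2 ± 2.65 CPM (log2 fold change 4.07, SE 0.23, adjusted p = 5.82e-10, edgeR). Of the lysosomal and matrix breakdown enzymes 9 of 14 rose and 2 fell with vehicle, and 11 rose and 2 fell with D + Q. Glb1, the lysosomal beta-galactosidase that acts on keratan sulfate and whose activity is stained as a sign of senescence, rose from 1.35 ± 0.139 to 7.53 ± 1.41 CPM (log2 fold change 2.49, SE 0.18, adjusted p = 3.56e-08, edgeR).

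**Figure D4:**
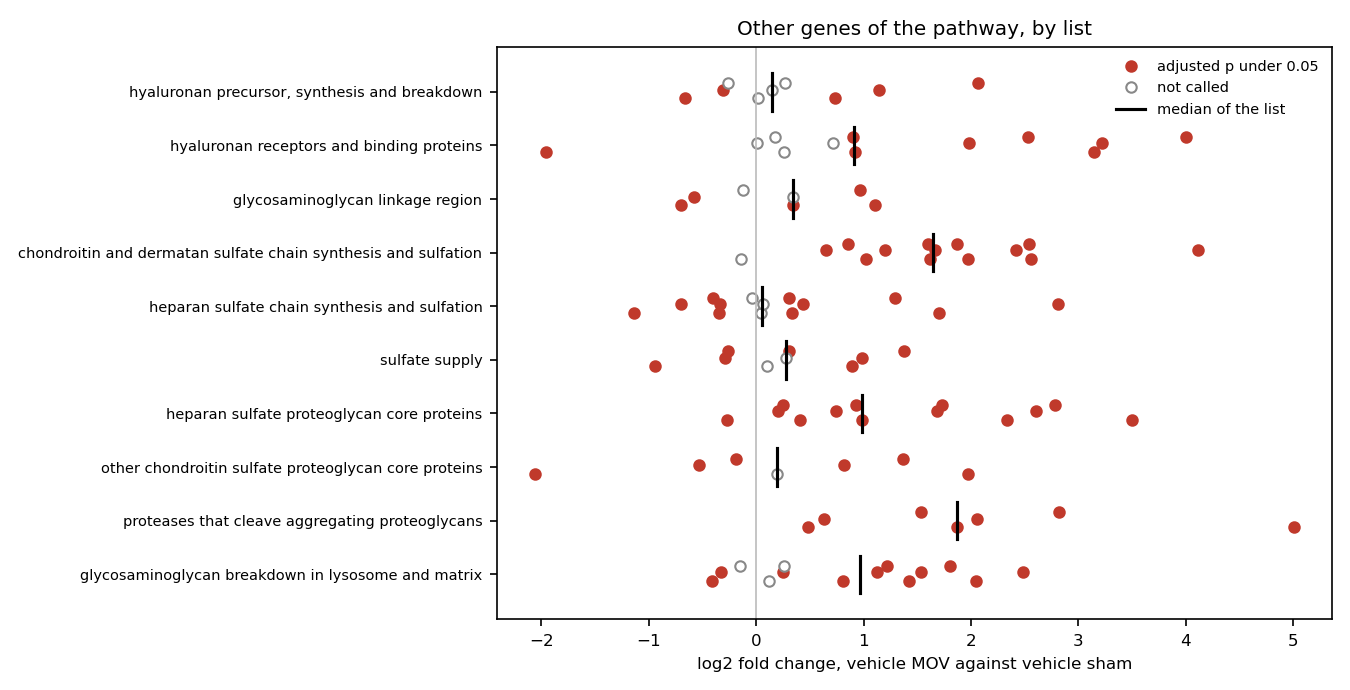
Log2 fold change of vehicle MOV against vehicle sham for 106 other pathway genes in 10 lists, filled where the adjusted p was under 0.05 and open otherwise, with a black bar at each list's median. Called genes of the chondroitin list lie to the right of 0 (13 of 14), while those of the heparan sulfate list lie on both sides (6 higher, 5 lower).

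D + Q against vehicle was then tested in MOV muscle, in 15238 genes. Of the 9 members that passed the count filter 0 were called, as were 0% of all genes (edgeR's quasi-likelihood test), and DESeq2 and limma-voom also called 0 members. At an unadjusted p under 0.05 there were 4 members (Sulf1, Sulf2, Vcan and Chpf) and 1340 genes in all. In 8 of 9 members the fitted value was higher with D + Q, where 50.5% of all genes were. The members' median was 0.39 on the log2 scale, against 0.002 over all genes. The members were measured in the same mice, so they are not separate observations.
Sulf1 had the lowest p, with a log2 fold change of 0.32 (95% interval 0.092 to 0.55, adjusted p = 0.523, edgeR). Sulf2 stood at 0.40 (0.062 to 0.73, adjusted p = 0.526, edgeR), Vcan at 0.39 (0.041 to 0.74, adjusted p = 0.547, edgeR) and Chpf at 0.27 (0.028 to 0.51, adjusted p = 0.547, edgeR). For the synthases the intervals were wide. Has1 was at 0.60 (-1.46 to 2.67) and Has2 at 0.60 (-0.51 to 1.71), both with an adjusted p above that of Sulf1 (0.851 and 0.731, edgeR). Cspg4 was at -0.013 (-0.25 to 0.22, adjusted p = 0.977, edgeR). Cemip was at 0.39 (-0.16 to 0.93) and Acan at 0.49 (-0.24 to 1.23).

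In no member did every D + Q MOV mouse lie above every vehicle MOV mouse (0 of 10), where 0.748% of all genes did so. In Vcan and Sulf2 4 of 5 D + Q mice lay above the highest vehicle mouse, and in Sulf1 4 of 5 vehicle mice lay below the lowest D + Q mouse. Single mice weighed heavily. Without vehicle MOV mouse 2, Sulf1 was at 0.23 (adjusted p = 0.796, edgeR), Sulf2 at 0.27, Vcan at 0.25 and Chpf at 0.19. Without vehicle MOV mouse 4 Has1 was at 2.19 (adjusted p = 0.184, edgeR), and without D + Q MOV mouse 5 it was at 0.049 (adjusted p = 0.994, edgeR) and Acan at 0.16. Has2 went the same way, to 1.09 without vehicle MOV mouse 4 and 0.22 without D + Q MOV mouse 5. Without vehicle MOV mouse 2 Has1 was at 0.32 and Cemip at 0.22, and Cemip was at 0.23 without D + Q MOV mouse 5. Between D + Q and vehicle MOV muscle the median difference of the 8 fibroblast markers was 0.33 (log2) and that of the 8 macrophage markers 0.24, and 0 of 8 were called in either list (edgeR). Their part in the members' differences was not tested. Of 111 other pathway genes 0 were called and 12 had an unadjusted p under 0.05 (edgeR), and DESeq2 and limma-voom called 0. The paper, with DESeq2 at an FDR under 0.05, does report differentially expressed genes for D + Q in MOV muscle. It gives Adamts1 as higher with D + Q. Here Adamts1, named for that report, was at 0.43 on the log2 scale (adjusted p = 0.617, edgeR).

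In sham muscle the same comparison covered 13926 genes, of which 0.215% were called, and 7 members passed the filter, since Acan, Cemip and Hapln1 had too few counts. Of these 0 were called by edgeR, DESeq2 or limma-voom, and 2 had an unadjusted p under 0.05 (edgeR). They were Sulf1, at 0.41 (95% interval 0.12 to 0.70, adjusted p = 0.293, edgeR), and Vcan, at 0.50 (0.013 to 1.0, adjusted p = 0.477, edgeR). In 6 of 7 members the fitted value was higher with D + Q, where 48.6% of all genes were. Every D + Q sham mouse lay above every vehicle sham mouse in 0 of 10 members, where 1.34% of all genes did so. Cemip, outside the fit, gave 1, 4, 1, 6 and 1 counts in D + Q sham mice 1 to 5 and 1 count in all with vehicle. This difference was not tested. The highest D + Q sham value of Vcan, 11.4 CPM in mouse 2, came from the sham mouse that lay nearest to MOV on the first principal component (-47.95). Without that mouse the difference of Vcan was 0.26. With 1 mouse left out at a time, Sulf1 ran from 0.35 to 0.55, Has1 from 0.28 to 0.53, Has2 from 0.33 to 0.69 and Sulf2 from 0.036 to 0.34.
In the same comparison the median difference of the 8 fibroblast markers was 0.40 (log2) and that of the 7 tendon and cartilage-like markers tested 0.36, and 0 were called in either list (edgeR). The fibroblast markers summed to 285 to 433 CPM in vehicle sham and 355 to 959 CPM in D + Q sham mice, with the highest sum in D + Q sham mouse 2. Their part in the members' differences was not tested.
Among the other pathway genes 2 of 101 were called with D + Q in sham muscle, both higher. Ugdh was at 6.34 ± 0.443 CPM with vehicle and 9.54 ± 1.22 CPM with D + Q, a log2 fold change of 0.57 (SE 0.11, adjusted p = 0.0417, edgeR). Thbd, thrombomodulin, an anticoagulant receptor of endothelium that can carry chondroitin sulfate, was at 12.8 ± 2.67 and 20.6 ± 2.11 CPM, a log2 fold change of 0.68 (SE 0.13, adjusted p = 0.0417, edgeR). Each of these calls was lost in 10 of 18 alternative settings, among them 8 of the 10 in which 1 mouse was left out. Over the 18 settings their adjusted p ran from 0.00169 to 0.396 for Ugdh and from 0.000509 to 0.203 for Thbd.

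Whether D + Q changed the response to MOV was tested as an interaction over all 20 mice and 15700 genes. Of 9 members 0 were called by edgeR, DESeq2 or limma-voom, and 0.0127% of all genes were called by edgeR. Cemip and Acan passed the filter through their MOV mice alone. In sham muscle Cemip had 1 count with vehicle and 13 with D + Q, and Acan had 3 and 1. No interaction value of these genes is therefore read as a result. For the members with many counts the intervals were narrower, as for Sulf1 (-0.098, from -0.49 to 0.30), Cspg4 (-0.14, from -0.52 to 0.25) and Chpf (0.29, from -0.13 to 0.70). The interaction was 0.22 (-0.33 to 0.77) for Sulf2 and -0.12 (-0.79 to 0.55) for Vcan. Of 112 other pathway genes 0 were called (edgeR, DESeq2 and limma-voom), and 5 had an unadjusted p under 0.05 (edgeR). The 2 sham groups and the 2 MOV groups enter several of these comparisons, so the comparisons are not independent of each other.

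The overloaded mice differed more from each other in some members than in others. Vehicle MOV mouse 2 was the lowest of the 10 MOV mice in 7 of 9 members, all but Acan and Cspg4. D + Q MOV mouse 5 was the highest in 4, which were Has2, Cemip, Acan and Chpf. In log2 CPM relative to the mean of the 10 MOV mice, mouse 2 stood at -2.69 for Has1, -1.43 for Has2, -1.10 for Cemip and -0.91 for Vcan. Acan went another way, with vehicle MOV mouse 4, the highest in Has1, at -0.67.

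**Figure D5:**
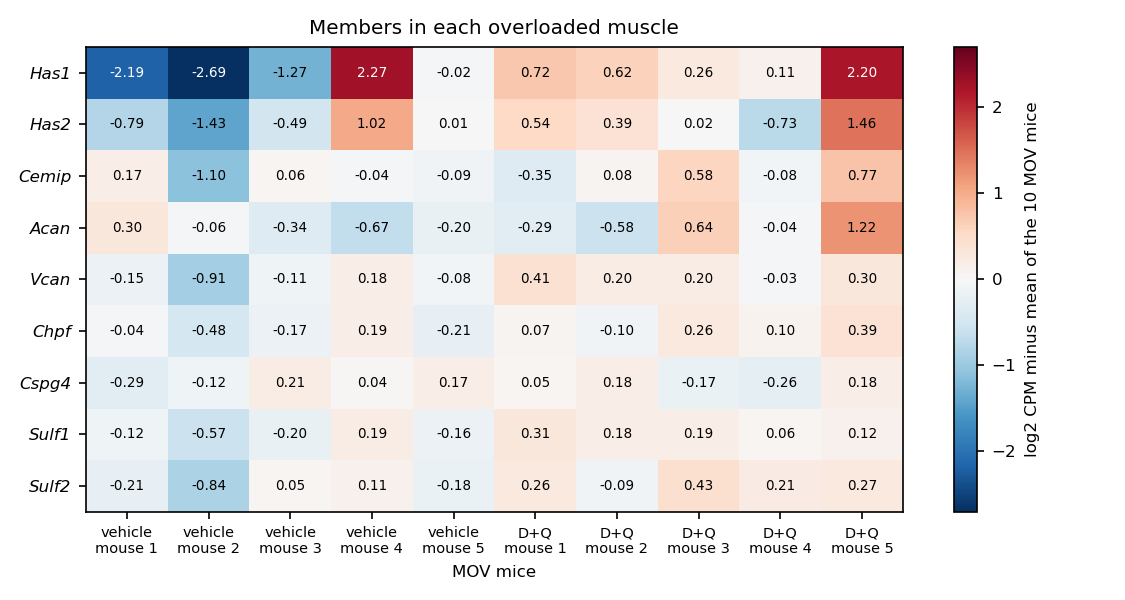
Log2 CPM of 9 members in each of the 10 MOV mice, as the difference from the mean of those 10 mice (red higher, blue lower; Hapln1 is left out for its low counts). Has1 runs from -2.69 in vehicle mouse 2 to 2.27 in vehicle mouse 4, and Cspg4 stays between -0.29 and 0.21.

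The genes whose values were most like each member's were found over all 20 mice, as deviations from group means among 13192 other genes with a mean of at least 1 CPM. These correlations share libraries and are given as a description. Has1 was most like Egr2 (r = 0.93), an immediate early transcription factor, and Arpc2 (r = 0.87), a subunit of the actin-nucleating Arp2/3 complex. Has2 was most like the same pair (both r = 0.88). Vcan was most like Fbn1 and Fstl1 (both r = 0.93), which encode the matrix proteins fibrillin-1 and follistatin-like 1. Sulf1 was most like Clec4a1 and Cyfip1 (both r = 0.9), and Sulf2 was most like Capg (r = 0.9), an actin-capping protein, and Ikbke (r = 0.89), a kinase of innate immune signaling. Cemip was most like Fkbp11 (r = 0.86) and Picalm (r = 0.85), Chpf like Stard3nl (r = 0.87) and Sgsm2 (r = 0.86), and Cspg4 like Kdm6b (r = 0.82) and Spata2 (r = 0.79). Acan had the lowest of these values, with Tmem237 and Birc5 at r = 0.74.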

How the data were processed

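RNA of 20 plantaris muscles was sequenced. The authors aligned reads with STAR 2.7.8a to GRCm39 and quantified genes in Partek, and the deposited table holds estimated counts without normalization (29.8% of values were not whole). Counts were rounded here. Groups came from the labels. The 10 members, the lists of other pathway genes and markers and the tests were chosen with earlier results of these data known. Rows that share a gene name (38) were not merged, no column was left unused, and 96.1% matched the GENCODE M39 annotation of GRCm39 by name, used for positions, exon lengths and promoters, where the study used an Ensembl annotation of the same build. The promoter of 1 member is not reported here.

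Each comparison was fitted with edgeR 4.0.16 (R 4.3.3; quasi-likelihood test, robust, TMM) keeping genes that reached 10 counts in 5 or more mice of the fit, with Benjamini-Hochberg adjustment over all genes tested and a threshold of 0.05. Comparisons of pairs of groups used their own 10 mice and the interaction all 20. Standard errors and 95% intervals were derived from the F statistic. Log2 CPM used a prior count of 2. The floor was 3 counts per mouse, and members near 0 were compared by summed counts with exact conditional intervals. Correlations were tested with 100000 two-sided permutations. The fit was tested on simulated counts.

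Beside the members, the text names in each pathway list the largest rise and fall between vehicle MOV and sham muscle among genes called in both MOV comparisons without overlap, pathway genes called with D + Q, and the 2 genes most like each member. The numbers of the mice did not pair them: deviations of same-numbered mice correlated from -0.15 to 0.185. Alternatives were DESeq2 1.42.0, RLE factors, library totals only, 2 other filters, the replicate block, limma-voom 3.58.1 with sample quality weights, a single fit of all 20 mice and each mouse left out. Total counts per mouse of 17887532 to 26234518 limit precision for low genes.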

Additional observations from a re-analysis of the deposited data

Results flagged for a closer look

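In 35 groups of 5 mice with more than 3 counts in some mouse, 5 held a member value whose gap to its nearest neighbour was over 0.71 of the group's range, where chance flags about 1 in 20 groups. Has1 was at 0.873 CPM in vehicle sham mouse 4 (nearest 0.412 CPM), at 22.4 CPM in vehicle MOV mouse 4 (nearest 4.47 CPM) and at 21.2 CPM in D + Q MOV mouse 5 (nearest 7.58 CPM). Cemip was at 2.28 CPM in vehicle MOV mouse 2 (nearest 4.69 CPM), and Cspg4 was at 12.9 CPM in D + Q sham mouse 1 (nearest 9.42 CPM). The source of these values was not tested.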

How the results depend on the processing

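No member was called for D + Q or for the interaction under any alternative tried. Over the whole table, calls for D + Q in MOV muscle went from 0 to 11 with DESeq2, 2 with the replicate block and 0 to 2 with each mouse left out. In sham muscle they went from 30 to 133 with DESeq2, 49 with library totals only, 67 without a filter, 19 with all 20 mice in one fit, 19 with the replicate block, and 2 (without D + Q sham mouse 3) to 74 (without vehicle sham mouse 5). The count of pathway calls there went from 2 to 0 with all 20 mice in one fit, to 1 with the replicate block (Adamts1, with neither Ugdh nor Thbd called) and to 0 to 2 with a mouse left out. It rose with DESeq2, with library totals only and without a filter, which each called Adamts1 higher or lower beside Ugdh and Thbd. In the main sham fit Adamts1 was at 0.59 on the log2 scale (adjusted p = 0.0564, edgeR). The replicate block took the interaction from 2 calls to 1. With library totals only, 6 in place of 19 pathway genes were called lower with vehicle and 5 in place of 14 with D + Q, as that scaling raises all values in MOV muscle.

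The small differences of Cspg4 and Chpf changed sign. Cspg4 with D + Q in MOV muscle was at 0.038 with library totals only, 0.0092 with limma-voom, and -0.081 to 0.048 with a mouse left out, and in sham muscle at -0.014 to 0.2. Chpf with D + Q in sham muscle was at 0.011 with library totals only, 0.031 with limma-voom, and -0.12 to 0.11 with a mouse left out. With a mouse left out the interaction ran from -0.4 to 1.77 for Has1 and -0.29 to 0.6 for Has2. It ran from -0.27 to 0.12 for Vcan and -0.23 to 0.0041 for Sulf1. For Acan it ran from -0.95 to 3.24, but Acan had only 3 sham counts with vehicle and 1 with D + Q. The Acan range is therefore not read as a result. The cause of the sign changes was not tested. DESeq2 gave Has1 no adjusted p in MOV muscle, and no count test resolves Hapln1 at this depth.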
